A study of Homo sapiens with 12 samples.

Results

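MALAT1, NEAT1, KCNQ1OT1 and MIAT are long noncoding RNAs that stay mostly in the nucleus. They were taken by their symbols, 4 of the 26475 gene symbols measured, and all 4 passed the filter on low counts that left 14582 genes. They were selected on their CPM in the same 12 libraries, which were already known, so their levels and fold changes are a description. No p-value is given for them. Calls they meet in the main fit of all 12 libraries are printed only beside the share of all genes that meet them. Those in alternative fits show only how far the calls depend on the fit. RNA sequencing was performed on MIAPaCa2, an established human pancreatic ductal adenocarcinoma line, in 4 groups of 3 libraries. Parental cells, without prior selection, received vehicle (parental vehicle) or sodium oxamate, a competitive inhibitor of lactate dehydrogenase A (parental oxamate). Oxamate-resistant cells, the population that survived 10 mM oxamate for 4 weeks and not a single clone, also received vehicle (resistant vehicle) or oxamate (resistant oxamate). The sources used here do not say how long the cells were treated before RNA was extracted, nor whether libraries came from separate cultures, so the spread between libraries may be technical.

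Each of the 12 libraries held 46698729 to 114222169 estimated counts. Levels are given as counts-per-million values (CPM) after scaling by trimmed mean of M-values (TMM), and 3 counts, taken as the detection floor, corresponded to 0.0283 to 0.0581 CPM. Keratin 8 and vimentin were high in every library (at least 671.0 and 5916.5 CPM), and E-cadherin, a defining epithelial marker, had at most 2 counts. The leukocyte marker PTPRC had at most 3 counts. In 2 libraries, the third parental oxamate and the third resistant vehicle library, all 4 RNAs were far above the other libraries of the same group, and results that rest on them are given with and without both. Their totals, 76423863 and 53208326 counts, lay inside the range of the others.

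MALAT1 is a component of nuclear speckles, the compartments in which splicing factors concentrate. The long form of NEAT1 is the architectural RNA of paraspeckles, nuclear bodies that hold back certain RNAs and proteins and grow in many kinds of stress. KCNQ1OT1 is transcribed antisense within KCNQ1 and silences neighbouring genes in cis at an imprinted domain, and MIAT is a spliced RNA that forms scattered nuclear foci. MALAT1 and the long form of NEAT1 end without a conventional poly(A) tail. RNase P cuts off a tRNA-like small RNA, and the new end is held in a triple helix between U-rich stretches and an encoded A-rich tract.

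In GENCODE 29 (GRCh38), MALAT1 lay at chr11:65497688-65506516 and NEAT1 at chr11:65422774-65445540, both on the plus strand. The longest annotated transcript of each is a single exon, of 8708 bases for MALAT1 and 22743 bases for NEAT1. The 100 bases before the annotated small RNA, at chr11:65506017-65506116 for MALAT1 and chr11:65445441-65445540 for NEAT1, are printed 5′ to 3′ because they show the end that both RNAs share. Capitals mark stretches of at least 8 bases that occur in both windows.
MALAT1 end: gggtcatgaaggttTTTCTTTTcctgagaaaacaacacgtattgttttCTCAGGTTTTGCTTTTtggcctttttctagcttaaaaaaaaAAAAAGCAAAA
NEAT1 end: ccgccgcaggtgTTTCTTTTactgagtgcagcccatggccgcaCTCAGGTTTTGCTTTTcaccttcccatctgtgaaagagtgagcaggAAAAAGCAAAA
Each window held 3 such stretches, 2 of them T-rich (8 and 16 bases) and the last an A-rich stretch of 11 bases at the very end. The small RNAs that follow, at chr11:65506117-65506173 and chr11:65445541-65445598, were 67.8% identical over 59 aligned columns.
MALAT1 small RNA: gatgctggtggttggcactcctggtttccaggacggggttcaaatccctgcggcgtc
NEAT1 small RNA: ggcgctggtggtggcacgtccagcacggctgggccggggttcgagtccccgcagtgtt

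KCNQ1OT1, at chr11:2608328-2699994 on the minus strand, is annotated as 1 unspliced transcript of 91667 bases, and MIAT, at chr22:26646428-26676475 on the plus strand, has 23 transcripts, the longest of 5 exons and 10143 bases. The libraries were made from RNA captured on oligo(dT) beads, which can also bind A runs inside a transcript, so the longest run of A in each of these 2 RNAs is shown in capitals with 20 bases on either side (chr11:2610697-2610765, minus strand, and chr22:26670583-26670646).
KCNQ1OT1 A run: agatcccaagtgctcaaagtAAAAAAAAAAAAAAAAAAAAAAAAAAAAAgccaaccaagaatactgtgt
MIAT A run: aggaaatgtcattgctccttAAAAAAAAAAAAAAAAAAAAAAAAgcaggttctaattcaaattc
Runs of at least 10 A numbered 17 in KCNQ1OT1, 5 in NEAT1, 2 in MIAT and 1 in MALAT1, where the run of 13 A lies 359 bases before the annotated end and inside the printed window. Such a run was present in the longest transcript of 23.1% of the 13643 tested genes with a GENCODE transcript, and of 56.4% of the 1117 whose longest transcript was 8 kb or more. Whether these runs affected the counts was not tested.

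MALAT1 had the highest mean of the 4 RNAs per kilobase of the longest annotated transcript, and stood at 183.0, 198.0 and 199.4 CPM in the parental vehicle libraries. In the parental oxamate libraries it stood at 288.8, 281.1 and 596.2 CPM, all above the parental vehicle libraries, with the third library far above the others. In the resistant vehicle libraries it stood at 272.8, 243.9 and 596.5 CPM, the same arrangement with the third library apart. The resistant oxamate libraries held 577.3, 609.1 and 742.2 CPM. The levels in both separate libraries therefore lay inside the range of the resistant oxamate group, and the group means were 193.4 ± 9.1 (SD, n = 3) in parental vehicle, 371.1 ± 195.8 in resistant vehicle, 388.7 ± 179.7 in parental oxamate and 642.8 ± 87.5 CPM in resistant oxamate. Resistant vehicle and parental oxamate overlapped, as did parental oxamate and resistant oxamate. In bulk RNA, more RNA per cell and more cells that hold the RNA cannot be told apart.

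NEAT1 had 133.9, 155.5 and 128.3 CPM in the parental vehicle libraries and 261.6, 257.2 and 575.3 CPM in the parental oxamate libraries. It reached 303.1, 284.0 and 503.9 CPM in the resistant vehicle libraries and 645.5, 458.5 and 648.5 CPM in the resistant oxamate libraries. Parental vehicle was again below every other library, and the third parental oxamate and the third resistant vehicle libraries again lay inside the resistant oxamate range. The counts are per gene symbol and do not separate the short and long forms of NEAT1, so which form varied cannot be read from them. The NEAT1 means were 139.2 ± 14.3 in parental vehicle, 363.7 ± 121.8 in resistant vehicle, 364.7 ± 182.4 in parental oxamate and 584.1 ± 108.8 CPM in resistant oxamate (SD, n = 3 each), and each neighbour in this order overlapped the next except parental vehicle. Per kilobase of its longest transcript, the MALAT1 mean was 22.2 ± 1.05 CPM in parental vehicle and 73.8 ± 10.0 in resistant oxamate (SD, n = 3 each), against 6.12 ± 0.631 and 25.7 ± 4.79 CPM for NEAT1, whose value would be higher if divided by the length of its short form.

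KCNQ1OT1 was a rare RNA, with 2.07, 2.07 and 2.33 CPM in parental vehicle and 3.38, 3.03 and 7.33 CPM in parental oxamate. The resistant vehicle libraries held 2.18, 2.07 and 3.41 CPM and the resistant oxamate libraries 4.04, 4.68 and 4.11 CPM. Its order of groups differed from that of each other RNA, since parental and resistant vehicle overlapped and its highest library was the third parental oxamate library, above all resistant oxamate libraries. KCNQ1, the potassium channel gene in which it lies on the opposite strand, ranged only from 21.0 to 25.4 CPM and was 22.6 CPM in the third parental oxamate library, below the other libraries of that group. The library kit is not stated to mark strand, so reads from the shared stretch cannot be told apart.

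MIAT had the widest range of the 4 as a fold between libraries, from 1.57, 1.85 and 1.48 CPM in parental vehicle to 10.9, 7.65 and 12.2 CPM in resistant oxamate. The parental oxamate libraries held 3.13, 3.01 and 7.78 CPM and the resistant vehicle libraries 4.52, 3.49 and 7.87 CPM. Parental vehicle lay below all other libraries, and the third library was again the highest of both middle groups. Unlike for MALAT1 and NEAT1, the mean was lower in parental oxamate (4.64 ± 2.72 CPM) than in resistant vehicle (5.30 ± 2.29 CPM), and these groups overlapped. Per kilobase of its longest transcript, the MIAT mean was 0.161 ± 0.0188 CPM in parental vehicle and 1.01 ± 0.231 in resistant oxamate (SD, n = 3 each), against 0.0235 ± 0.00164 and 0.0467 ± 0.00386 CPM for KCNQ1OT1. MIATNB, which overlaps MIAT on the same strand, stayed between 0.384 and 0.876 CPM, and in the third parental oxamate and the third resistant vehicle libraries it was 0.932-fold and 1.06-fold the level of the other libraries of the group.

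**Figure D1:**
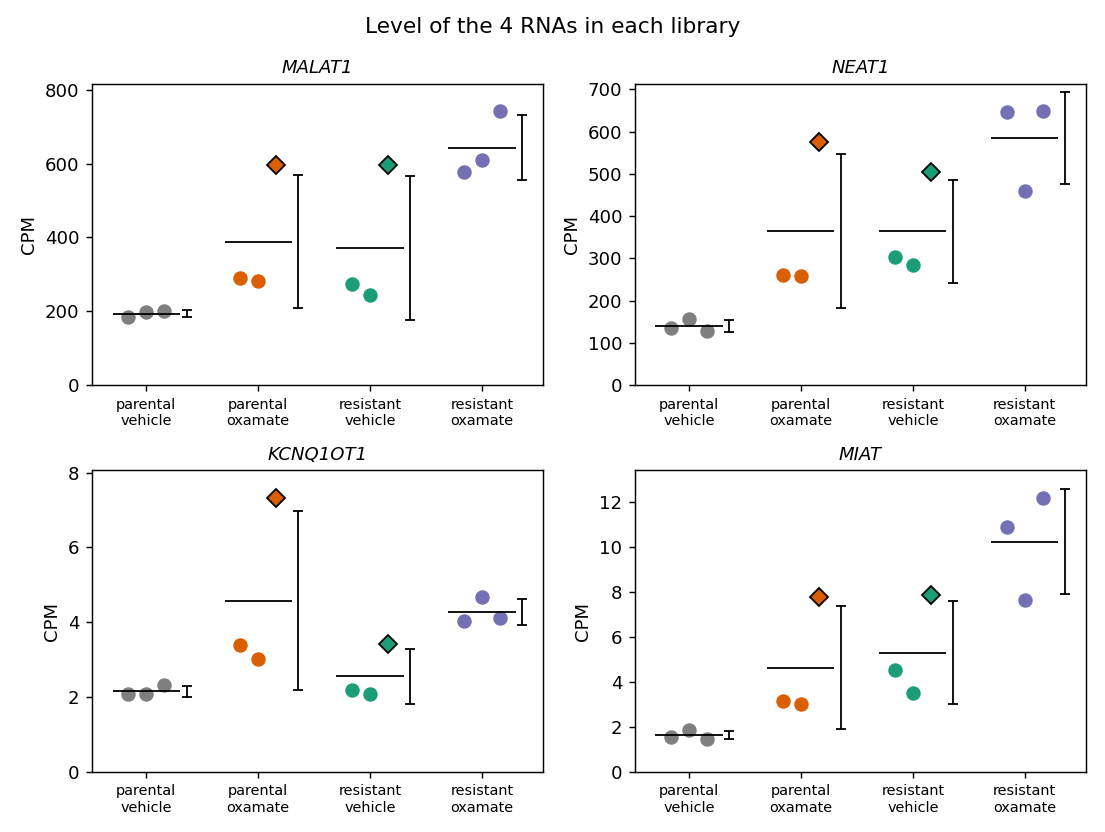
CPM (linear axes from 0) of MALAT1, NEAT1, KCNQ1OT1 and MIAT in the 12 libraries, by group. Each point is a library, lines are group means, bars are ± 1 SD (n = 3), and diamonds mark the third parental oxamate and the third resistant vehicle libraries, which stand above the other libraries of the group for all 4 RNAs (MALAT1 596.2 and 596.5 CPM).

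Whether oxamate changed the RNAs in drug-naive cells was addressed by parental oxamate against parental vehicle. The fitted log2 fold changes were 1.01 (standard error 0.29) for MALAT1, 1.39 (0.27) for NEAT1, 1.12 (0.26) for KCNQ1OT1 and 1.53 (0.36) for MIAT. All 4 met the study's rule, an unadjusted p under 0.05 with a fold change over 1.5, applied here in edgeR. The study used DESeq2, in which these calls did not change here. The share of all genes called in DESeq2 is not given, so this shows only how far the calls depend on the fit. In edgeR 5.69% of all genes tested met it upward. All 4 had groups that did not overlap, as did 29.6% of genes. These counts are given as background and nothing is read from them. Without the third parental oxamate and the third resistant vehicle libraries the values fell to 0.56 for MALAT1, 0.90 for NEAT1, 0.58 for KCNQ1OT1 and 0.90 for MIAT. The direction was then the same for each RNA and the 2 remaining parental oxamate libraries were still above all parental vehicle libraries, but MALAT1 and KCNQ1OT1 no longer met the rule, with folds of 1.47 and 1.5.

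Re-exposure of resistant cells was addressed by resistant oxamate against resistant vehicle. The log2 fold changes were 0.79 (standard error 0.29) for MALAT1, 0.68 (0.26) for NEAT1, 0.74 (0.27) for KCNQ1OT1 and 0.96 (0.31) for MIAT. All 4 met the rule, which 2.23% of genes met upward, but only for KCNQ1OT1 did the groups not overlap, as for 18.7% of genes. MALAT1 and NEAT1 did not meet it in DESeq2, and only MIAT met it without the first or without the second resistant vehicle library. Leaving out both libraries raised the values to 1.31, 0.99, 1.01 and 1.36, and the lowest resistant oxamate library of each RNA was then above both remaining resistant vehicle libraries.

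Resistant vehicle against parental vehicle asked what differed between the lines without drug. MALAT1 was higher by 0.94 (standard error 0.29) on the log2 scale, NEAT1 by 1.38 (0.27) and MIAT by 1.68 (0.35). These 3 met the rule, which 17.2% of genes met upward, and did not overlap, as for 39.7% of genes. The KCNQ1OT1 value was 0.25 (0.28) and its groups overlapped. Without both libraries MALAT1 was higher by 0.42 and no longer met the rule, NEAT1 and MIAT were higher by 1.07 and 1.28, and KCNQ1OT1 stood at -0.01.

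Under oxamate, resistant cells exceeded parental cells by 0.72 (standard error 0.29) for MALAT1, 0.68 (0.26) for NEAT1 and 1.11 (0.31) for MIAT. These 3 met the rule, as did 22.9% of genes upward, and none of the 4 had groups that did not overlap, against 40.9% of genes. MALAT1 and NEAT1 no longer met the rule in DESeq2, so these calls depended on the fit. The KCNQ1OT1 value was -0.13 (0.25), and it turned to 0.19 when scaled by library size alone and to 0.41 without both libraries. Without both libraries the other RNAs stood at 1.17, 1.17 and 1.74. Scaling by library size alone took the median of all genes from 0.03 to 0.24 in resistant against parental vehicle and from 0.01 to 0.34 under oxamate, and moved each of the 4 RNAs by about as much.

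The difference of the oxamate responses, resistant minus parental, was the value that depended most on these libraries. With all 12 libraries it was -0.22 (standard error 0.41) for MALAT1, -0.71 (0.37) for NEAT1, -0.38 (0.38) for KCNQ1OT1 and -0.57 (0.47) for MIAT, a larger response in parental cells for each. Without both libraries it was 0.75 (standard error 0.10), 0.10 (0.15), 0.42 (0.15) and 0.47 (0.25), so the sign turned for all 4. The value of NEAT1 was then smaller than its standard error. Both libraries were singled out as high for these RNAs, so leaving them out could only move the difference upward. None of the 4 RNAs met the rule with all 12 libraries, which 5.54% of genes met upward and 2.94% downward, and MALAT1 met it upward without both. NEAT1 met it downward with no filter on low counts and without the first or second parental oxamate or the second resistant vehicle library. The response of these RNAs to oxamate was thus upward in both lines with either set of libraries, and the sign of the difference between the lines rested on the 2 libraries. The comparisons share groups and are not independent of each other.

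**Figure D2:**
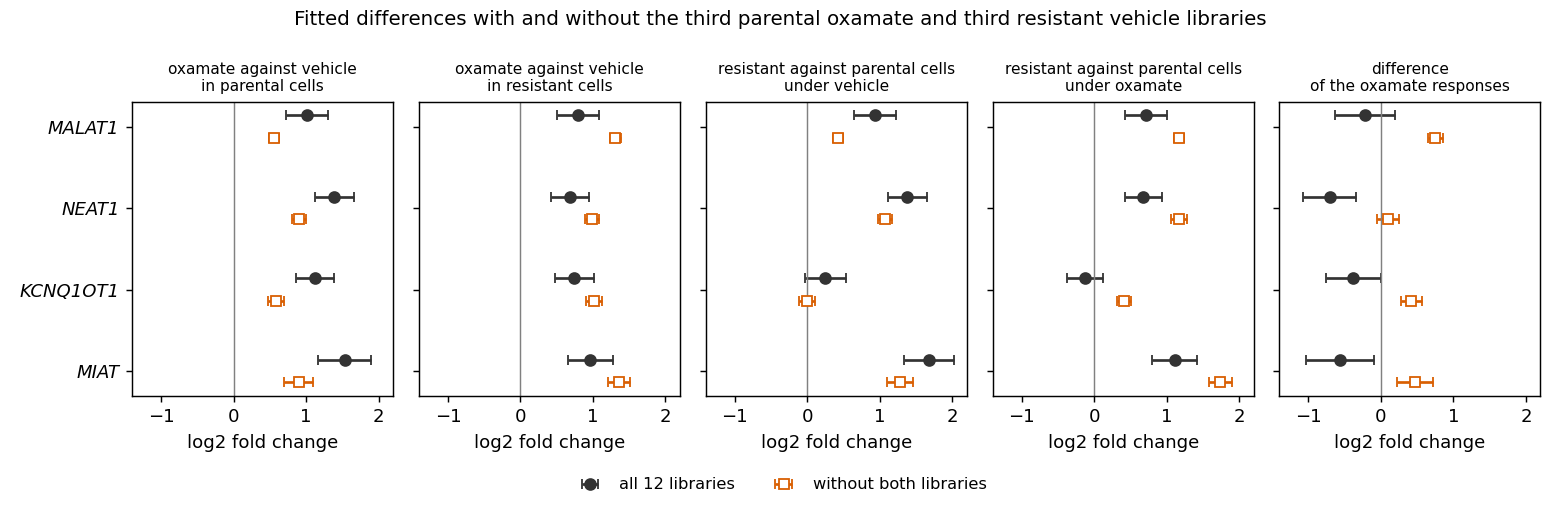
Fitted log2 fold changes of the 4 RNAs in the 5 comparisons, with bars of ± 1 standard error. Filled circles use all 12 libraries and open squares leave out the third parental oxamate and the third resistant vehicle libraries. In the right panel MALAT1 goes from -0.22 to 0.75 and the other RNAs also cross 0.

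The size of the departure was measured as the log2 CPM of a library minus the mean of the other 2 libraries of its group. In the third parental oxamate library MALAT1 was 2.09-fold, NEAT1 2.22-fold, KCNQ1OT1 2.28-fold and MIAT 2.52-fold above the others. In the third resistant vehicle library the excess was 2.31-fold, 1.72-fold, 1.60-fold and 1.97-fold. The order of the RNAs was therefore not the same in the 2 libraries, with MALAT1 last in one and first in the other. Of all genes tested, 0.48% to 2.27% had a larger excess than the respective RNA. The third resistant oxamate library, which was the highest of its group for MALAT1, NEAT1 and MIAT, was only 1.25-fold, 1.19-fold and 1.33-fold above the others, and no parental vehicle library exceeded the others in any of the 4 RNAs by as much as 1.5-fold.

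The between-group share of the variance in log2 CPM was 71.0% for MALAT1, 81.5% for NEAT1, 63.9% for KCNQ1OT1 and 82.5% for MIAT, against a median of 93.1% over all genes. Without both libraries, which were singled out for these RNAs, it was 98.0%, 96.8%, 96.9% and 96.6%, against a median of 95% over all genes in the same 10 libraries. The spread within groups of MALAT1 fell from 0.478 to 0.127 on the log2 scale.

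More genes stood out in the same libraries. Over 1.5-fold above the other libraries of the group were 576 genes (3.95%) in the third parental oxamate library and 439 (3.01%) in the third resistant vehicle library, against 140 to 228 genes in each of the other 10. The 192 genes common to both lists made up 33.3% of the first and 43.7% of the second. Most were rare transcripts. In the 25% of genes with the lowest mean CPM, which contain KCNQ1OT1, 13.4% and 11.1% of the other genes passed 1.5-fold in the respective library. In the next 25%, which contain MIAT, 1.89% and 0.631% of the other genes did. In the 25% with the highest, which contain MALAT1 and NEAT1, 6 and 2 of the other 3644 genes did. These abundant genes, named after their values were seen, were MAT2A (2.41-fold), OGT, LUC7L3, SRSF5, CAPRIN2 and SRSF1 (1.52-fold) in the parental oxamate library, and CAPRIN2 (1.51-fold) and OGT (1.5-fold) in the resistant vehicle library. MAT2A makes S-adenosylmethionine, OGT attaches N-acetylglucosamine to nuclear and cytoplasmic proteins, and SRSF1 and SRSF5 are splicing factors. Long noncoding genes other than the 4 passed 1.5-fold more often than protein-coding genes, at 11.7% and 10.3% of 624 against 2.81% and 2.12% of 12705. Pseudogenes did so too, at 17.7% and 8.68% of 288, as did 13.0% and 43.5% of 23 genes of other types, and the part of the level of these genes in this was not tested.

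Some mRNAs keep particular introns and wait in the nucleus as polyadenylated, incompletely spliced transcripts. A list of 13 such detained-intron mRNAs was compared with the 4 RNAs. Its median excess was 0.35 on the log2 scale in the third parental oxamate library and 0.10 in the third resistant vehicle library. The medians of all genes there were 0.00 and -0.01. In each library 11 of 13 mRNAs were above 0, some barely, such as RSRC2 at 0.01 in the first and CLK4 at 0.05 in the second. Over 1.5-fold were 5 and 3 of the 13, against 3.95% and 3.01% of all genes. CCNL2, a cyclin of the splicing speckles, had 21.4, 21.9 and 40.0 CPM in parental oxamate and 25.3, 22.4 and 40.9 CPM in resistant vehicle. Its parental vehicle libraries lay between 18.3 and 19.3 CPM and its resistant oxamate libraries between 37.9 and 47.5 CPM, the same arrangement as MALAT1. OGT followed with 66.1, 67.5 and 122.0 CPM in parental oxamate and 78.4, 76.0 and 116.1 CPM in resistant vehicle. CCNL1 was 1.53-fold and 1.63-fold above the other libraries and LUC7L3 1.71-fold and 1.36-fold. SRSF5 stood out only in the parental oxamate library, at 66.2 against 40.4 and 38.6 CPM, and had 101.9 against 110.6 and 108.3 CPM in the resistant vehicle library. The kinase CLK1 did not follow, with 99.0, 101.5 and 102.2 CPM in parental oxamate and 39.7, 38.3 and 41.6 CPM in resistant vehicle. RSRC2, CLK2, CLK4 and LUC7L were equally flat, with a log2 excess from -0.05 to 0.11 in the 2 libraries.

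**Figure D3:**
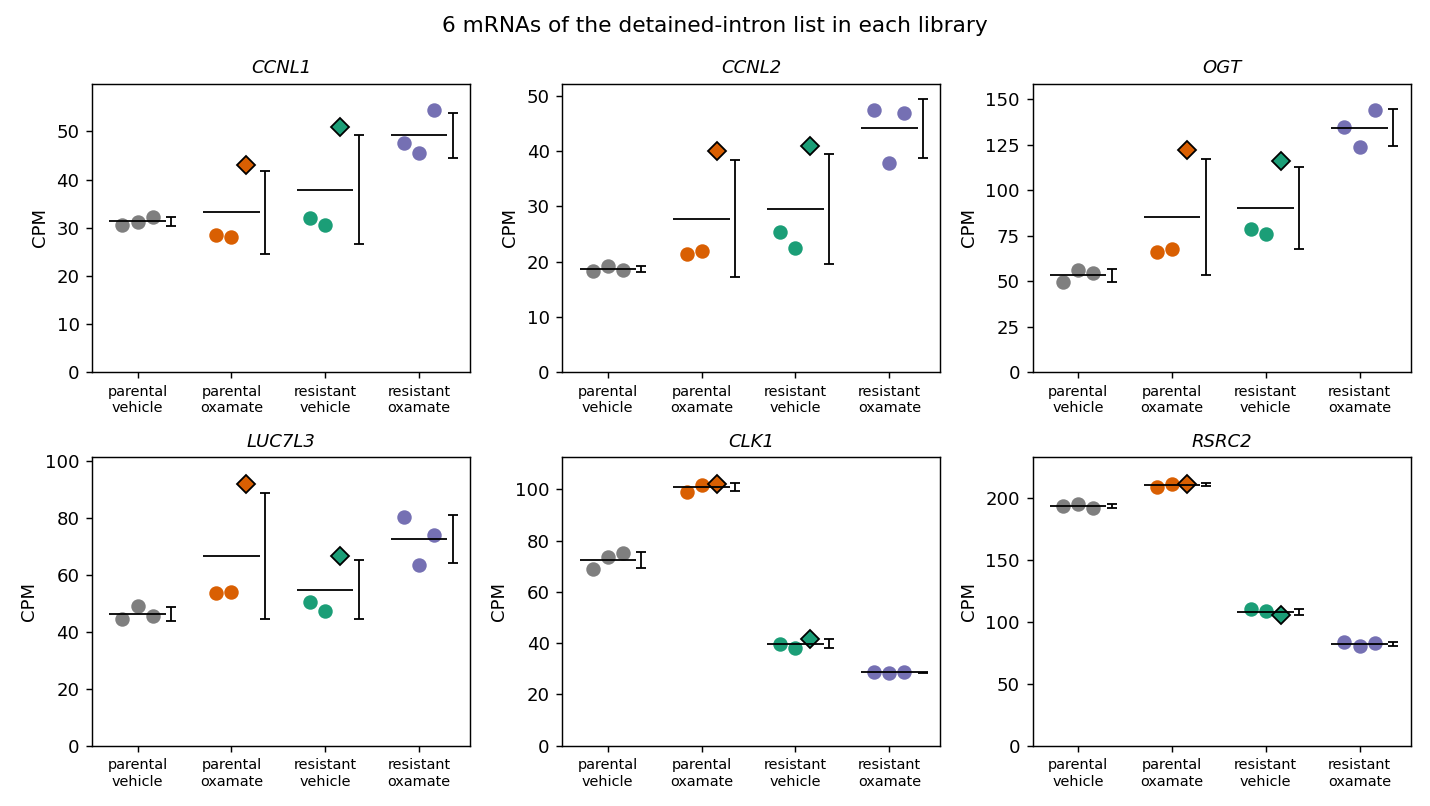
CPM (linear axes from 0) of 6 mRNAs of the detained-intron list in the 12 libraries, by group, with means and ± 1 SD (n = 3). Diamonds mark the third parental oxamate and the third resistant vehicle libraries, which are high for CCNL1, CCNL2, OGT and LUC7L3 and lie with the rest of the group for CLK1 and RSRC2.

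Between groups, the edgeR fit over all genes called OGT and CCNL2 higher in parental oxamate (log2 fold changes 0.69 and 0.59, adjusted p = 5.93e-03 and 3.18e-02 after Benjamini-Hochberg adjustment), and without both libraries these values were 0.33 and 0.21 and neither was called. In resistant against parental vehicle 4 of the 13 were called higher and 3 lower, against 17.2% and 6.14% of all genes. RBM5, a splicing regulator, was 38.5 ± 1.86 in resistant vehicle and 15.6 ± 0.560 CPM in parental vehicle, and RSRC2 108.0 ± 2.29 and 193.4 ± 1.75 CPM (SD, n = 3 each). In resistant oxamate none of the 13 was called with all 12 libraries, where 2.23% of all genes were called higher. Without both libraries 3 were called higher there and 0 lower. The list medians ranged from 0.11 to 0.23 in the 4 group comparisons, where the medians of all genes were 0.00 to 0.03. Without both libraries the list medians ranged from 0.00, in resistant against parental vehicle, to 0.29, in resistant against parental cells under oxamate.

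The other lists departed less in the third parental oxamate library. The 9 tested nuclear long noncoding RNAs outside the 4 had a median excess of 0.14 in the third parental oxamate and 0.16 in the third resistant vehicle library, with 2 and 1 of them over 1.5-fold. LINC-PINT was 15.3 against 9.48 and 10.4 CPM in the first but 8.54 against 7.28 and 6.94 CPM in the second, and TUG1 was 77.8 against 73.1 and 71.2 CPM and 104.8 against 95.3 and 92.7 CPM. Among 17 long noncoding RNAs that host small nucleolar RNAs or act in the cytoplasm, none passed 1.5-fold in either library. The 18 nuclear speckle proteins had medians of 0.10 and 0.06, with 12 and 14 of them above 0, and 2 of them passed 1.5-fold in the third parental oxamate library. The 20 paraspeckle proteins, 15 mRNA export factors and 9 reported regulators of NEAT1 and MALAT1 had medians from -0.02 to 0.00, and none of them passed 1.5-fold. The summed level of small nucleolar and Cajal body RNAs was 14.9 CPM in the third parental oxamate library against 10.9 and 11.8 CPM, and 15.2 CPM in the third resistant vehicle library against 10.6 and 9.93 CPM. It was 9.76 to 9.90 CPM in parental vehicle, below every other library as for MALAT1, and 12.7 to 14.3 CPM in resistant oxamate. Unlike for MALAT1, the third parental oxamate and the third resistant vehicle libraries lay above every resistant oxamate library. The summed spliceosomal and other small nuclear RNAs did not stand out, at 155.4 CPM in the third parental oxamate library against 159.0 and 200.6 CPM, and 156.4 CPM in the third resistant vehicle library against 136.5 and 155.4 CPM. Summed histone genes, most of whose transcripts lack a poly(A) tail, were 119.0 CPM in the third parental oxamate library against 114.3 and 121.9 CPM, and 118.1 CPM in the third resistant vehicle library against 119.6 and 117.7 CPM. The part of these RNA classes in the departure of the 2 libraries was not tested.

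**Figure D4:**
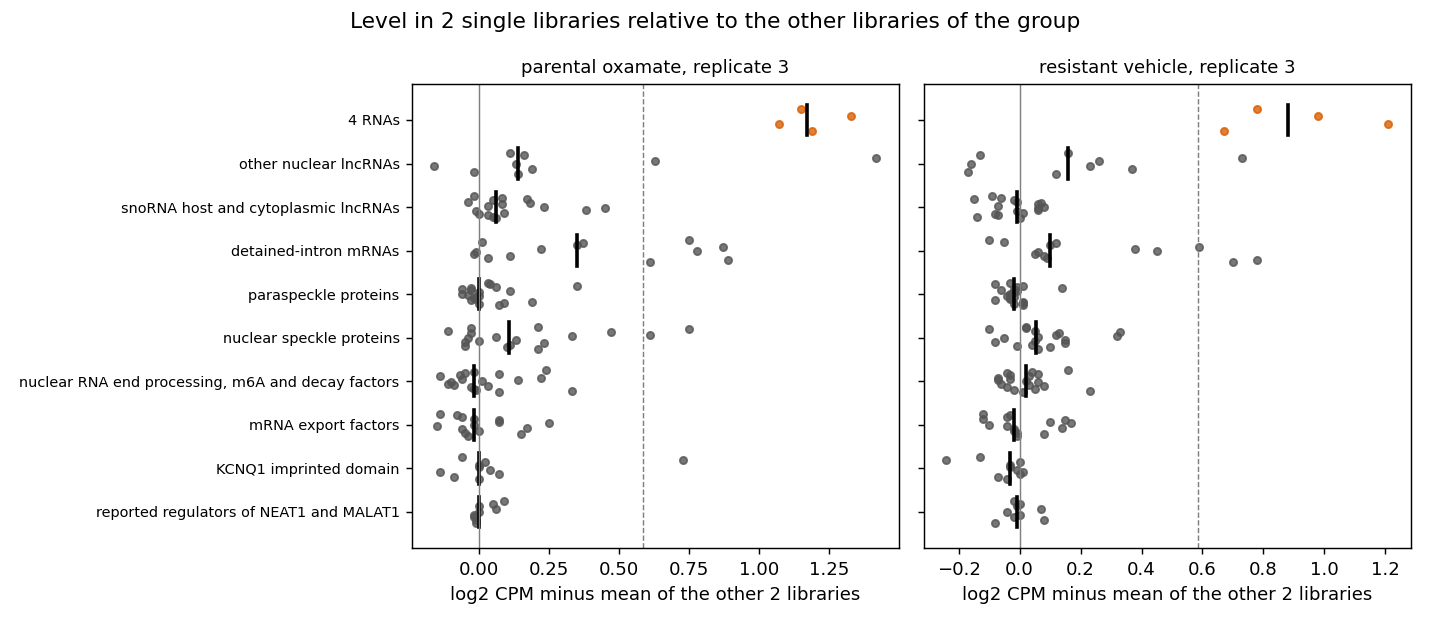
Log2 CPM of the third parental oxamate library (left) and the third resistant vehicle library (right) minus the mean of the other 2 libraries of the group. Each point is a gene, black bars are list medians, the solid line is 0 and the dashed line 1.5-fold. The 4 RNAs (orange) are at 1.07 to 1.33 and 0.67 to 1.21, and the detained-intron list has the highest median of the other lists on the left (0.35).

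Genes with the most similar library-to-library pattern were ranked by Pearson's correlation of deviations from the group means over the 12 libraries, among the 12422 genes that averaged 1 CPM or more. The points share libraries, and the correlations rest largely on the 2 libraries, so they are a description. MALAT1 was closest to CCNL1 (0.994), then THBS3 and SGK494. NEAT1 was closest to ENGASE (0.987), LUC7L3 and AFG3L1P, KCNQ1OT1 to CUL9 (0.987), RAD9A and MICAL1, and among the genes nearest to MIAT were KIAA0895L (0.986) and SCNN1D. Among the 4 RNAs themselves the correlations ran from 0.837 for KCNQ1OT1 with MIAT to 0.989 for NEAT1 with MIAT. The partner could be far less variable than the RNA, since THBS3 was only 1.09-fold and 1.12-fold above the other libraries where MALAT1 was 2.09-fold and 2.31-fold.

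The proteins that build paraspeckles around NEAT1 were examined because NEAT1 differed between the groups. None of the 20 was called under oxamate in either line by edgeR or DESeq2. Of all genes, edgeR called 5.69% higher and 4.19% lower in parental oxamate, and 2.23% and 0.274% in resistant oxamate. In edgeR, 17 of the 20 in parental and 11 in resistant cells had an unadjusted p under 0.05, with smaller folds than the rule asks. In resistant against parental vehicle 4 of the 20 were called higher and none lower, against 17.2% and 6.14% of all genes. The median over the list was -0.10, against 0.03 for all genes. PSPC1, a core paraspeckle protein, was 38.1 ± 0.801 in resistant vehicle and 24.5 ± 0.230 CPM in parental vehicle (SD, n = 3 each). Its log2 fold change was 0.64 (adjusted p = 2.64e-11 in the edgeR fit over all genes), and TAF15 rose by 0.60. Under oxamate 5 were higher in resistant cells and 1, TARDBP, was lower, against 22.9% and 11.4% of all genes. PSPC1 was then 40.4 ± 0.955 against 17.0 ± 0.0629 CPM. SFPQ, which like PSPC1 pairs with NONO, was 75.3 ± 2.90 against 44.2 ± 0.800 CPM. Without both libraries 4 were called higher under vehicle, and 6 higher and 1 lower under oxamate. For nuclear speckle proteins, the setting of MALAT1, 1 of 18 was called higher and 4 lower in resistant against parental vehicle (all genes, 17.2% and 6.14%), and 3 higher and 4 lower under oxamate (22.9% and 11.4%). SRSF11 was 85.0 ± 4.49 against 149.4 ± 2.47 CPM without drug, and PNN 128.3 ± 5.99 against 248.0 ± 11.3 CPM under oxamate.

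Of 19 factors that process, methylate or degrade nuclear RNA, none was called under oxamate in either line by edgeR or DESeq2. The shares of all genes called by edgeR were 5.69% higher and 4.19% lower in parental, and 2.23% and 0.274% in resistant cells. Of the 19, 16 in parental and 9 in resistant cells had an unadjusted p under 0.05 in edgeR. Between the lines 2 were higher in resistant cells and 1 lower under vehicle (all genes, 17.2% and 6.14%), and 4 higher and 2 lower under oxamate (22.9% and 11.4%). ZCCHC8, a subunit of the nuclear exosome targeting complex, was 39.7 ± 0.584 against 24.6 ± 1.13 CPM under vehicle, and YTHDC1, a nuclear reader of N6-methyladenosine, was 59.3 ± 1.26 against 32.0 ± 1.02 CPM under oxamate. The export adaptor ALYREF was the only one of 15 export factors called, lower in resistant cells by 0.93 under vehicle and by 0.76 under oxamate. There 6.14% and 11.4% of all genes were called lower. None of the 9 reported regulators, which include HIF1A, HSF1 and STAT3, was called by edgeR or DESeq2 in any of the 5 comparisons. In edgeR, 3 to 6 of these regulators had an unadjusted p under 0.05. Over the 5 comparisons, edgeR called from 0.274% to 22.9% of all genes in a single direction.

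Genes near the 4 RNAs were examined for a shared response. Of 33 tested genes within 250 kb, 1 was called higher and 4 lower in parental oxamate, against 5.69% and 4.19% of all genes, and none was called in resistant oxamate, where 2.23% of all genes were called higher and 0.274% lower. FAM89B, 65.8 kb from MALAT1, rose from 88.5 ± 3.80 to 137.8 ± 8.92 CPM in parental oxamate. TIGD3, 65.2 kb from NEAT1, fell from 3.53 ± 0.161 to 1.89 ± 0.0397 CPM and CDC42EP2 from 2.50 ± 0.201 to 1.38 ± 0.0726 CPM (SD, n = 3 each). Both moved opposite to NEAT1 and MALAT1 there, and in resistant against parental vehicle both were higher, by 0.78 and 1.01. FRMD8 and LTBP3, tested neighbours of MALAT1 and NEAT1, were not called in any comparison. In parental oxamate both were higher by under 1.5-fold, with log2 fold changes of 0.22 and 0.48 (adjusted p = 3.38e-05 and 1.12e-09, edgeR's quasi-likelihood test). Above 0 there were 14 of 17 tested genes near MALAT1 and 13 of 16 near NEAT1, with 3 below 0 near each. The medians were 0.21 and 0.20, against 0.00 for all genes, and these sets share genes. Near all 4 RNAs, 22 were above 0 and 11 below, with a median of 0.08.

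In the imprinted domain of KCNQ1OT1, PHLDA2 and CDKN1C, a growth regulator and a cyclin-dependent kinase inhibitor that KCNQ1OT1 is known to silence in cis, were lower in resistant cells. PHLDA2 was 98.6 ± 1.13 in resistant vehicle and 228.7 ± 6.81 CPM in parental vehicle (log2 fold change -1.21), and CDKN1C 55.7 ± 2.33 and 114.8 ± 4.93 CPM (-1.05), with adjusted p = 1.99e-15 and 1.67e-12 by edgeR's quasi-likelihood test. KCNQ1OT1 itself overlapped between these groups and did not meet the rule. Under oxamate PHLDA2 was 70.5 ± 1.1 against 282.9 ± 1.04 CPM and CDKN1C 43.0 ± 1.53 against 158.1 ± 5.30 CPM. Of the 10 tested genes of the domain, CARS was also called, higher in resistant cells by 0.63 under vehicle, and TSSC4 fell by 0.67 in parental oxamate. PHLDA2 and CDKN1C were not called for oxamate within a line, with log2 fold changes of 0.31 and 0.46 in parental and -0.48 and -0.37 in resistant cells. These changes were under 1.5-fold but beyond the spread between libraries in edgeR, with adjusted p = 4.35e-08 and 4.45e-08 in parental and 1.12e-08 and 2.59e-05 in resistant cells. The part of KCNQ1OT1 in the levels of these genes was not tested.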

How the data were processed

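RNA-seq expected counts per gene symbol in 12 libraries, as deposited, were analysed. Per the labels and the study's methods, the authors prepared libraries with oligo(dT) beads, sequenced them as read pairs, aligned them with Bowtie2 2.1.0 and made the estimated counts with RSEM 1.2.15 (processing notes name hg38). RSEM shares reads between overlapping or repeated transcripts, which can shift rare RNAs, and 11.6% of the 317700 values were not whole. Counts were rounded, genes filtered with filterByExpr, scaled by TMM and fitted with edgeR's quasi-likelihood test (edgeR 4.0.16, R 4.3.3) as 4 group means over all 12 libraries. CPM used these factors, and log2 CPM a prior count of 2. The rule for a call was the threshold of the study, a fold change over 1.5 at an unadjusted p under 0.05. The study applied it in DESeq2, and here it was applied to the edgeR fit. The scripts were tested on simulated data. limma 3.58.1 and DESeq2 1.42.0 were alternatives. Positions and sequences are from GENCODE 29 (GRCh38).

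The members and the 9 gene lists were chosen with earlier results of these data known. Named were the 4 RNAs, up to 2 genes called per list and comparison by smallest p, the 3 genes of highest Pearson correlation per RNA, and up to 3 called neighbours per RNA within 250 kb. Other genes named (CCNL1, LUC7L3, SRSF5, CLK1, CLK2, CLK4, LUC7L, CDC42EP2, the abundant genes over 1.5-fold and those given as not called among them) were chosen after their values were seen. Some genes that this rule would name are not reported here. Same-numbered replicates were not treated as paired: their deviations correlated between -0.07 and 0.25, over 0.1 in 2 of 18 pairs. The value of 0.25 was that of the third parental oxamate with the third resistant vehicle library. Such correlations cannot show whether replicates shared a culture. Values after ± are SDs between libraries. Standard errors come from the edgeR fit, which estimates the spread between libraries. The detection floor is a count and covers no other error.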

Additional observations from a re-analysis of the deposited data

Results flagged for a closer look

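None of the 4 RNAs is listed here, since they are described without p-values and only list genes and neighbours were considered. Among list genes and neighbours, the 14 reported here had an oxamate response that differed between resistant and parental cells by over 1.5-fold with an adjusted p under 0.05, from 5.69e-10 to 3.38e-02 (edgeR's quasi-likelihood test of the difference with Benjamini-Hochberg adjustment). The values are log2 responses in resistant minus parental cells. Among paraspeckle proteins the difference was 0.65 for SFPQ and 0.61 for PSPC1. Among detained-intron mRNAs it was -0.96 for CLK1, which was 0.48 higher in parental and 0.48 lower in resistant cells after oxamate, -0.65 for CLK4 and 0.71 for RBM5. Near the RNAs it was 1.01 for TIGD3, 0.91 for CDC42EP2 and 1.00 for ASPHD2, and in the KCNQ1 domain 0.59 for TSSC4, -0.79 for PHLDA2 and -0.83 for CDKN1C. The other list genes were DGCR8 (0.68), SNHG1 (-0.66) and DLEU2 (0.97). DLEU2 was rare, at 0.171 to 0.407 CPM over the 12 libraries, and the group means of ASPHD2 ran only from 0.662 to 2.37 CPM. Without the third parental oxamate and the third resistant vehicle libraries the differences kept their direction in all 14, with SNHG1 at -0.49, TSSC4 at 0.53 and DLEU2 at 0.90 but with an adjusted p of 8.79e-02. Across the other alternatives the adjusted p of DLEU2 ranged from 1.68e-02 to 1.76e-01.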

How the results depend on the processing

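Leaving out both the third parental oxamate and the third resistant vehicle libraries, an alternative chosen after seeing the data, moved 12 of the 20 log2 fold changes of the 4 RNAs by more than the within-group SD. In parental oxamate NEAT1 went to 0.90, KCNQ1OT1 to 0.58 and MIAT to 0.90, in resistant oxamate MALAT1 to 1.31, and in resistant against parental vehicle MALAT1 to 0.42. Under oxamate the difference between the lines went to 1.17 for NEAT1, 0.41 for KCNQ1OT1 and 1.74 for MIAT, and the difference of responses to 0.75 for MALAT1, 0.10 for NEAT1, 0.42 for KCNQ1OT1 and 0.47 for MIAT. Genes called in resistant oxamate went from 365 to 597, and list genes called there from 1 to 5. That gene count was also 192 at an adjusted p under 0.05, 209 when the mean count had to reach 25 and 231 in DESeq2, in which MALAT1 and NEAT1 did not meet the rule there, nor under oxamate between the lines. List genes called there were 3 with upper-quartile factors and with library size alone. Library size alone moved the higher share of calls from 57.6% to 43.7% in parental oxamate, from 73.7% to 91.0% and from 66.7% to 90.4% in resistant against parental cells under vehicle and oxamate, and from 65.3% to 82.5% for the difference. With the replicate number as a block, which the labels do not tie to shared cultures, 398 genes and 4 list genes were called in resistant oxamate, and the 4 RNAs met or missed the rule as before in all 5 comparisons. No excess of the 2 libraries or share of variance moved by more than its limit with another scaling or prior count.

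Leaving out 1 library at a time gave, for MALAT1, NEAT1, KCNQ1OT1 and MIAT in that order, log2 fold changes of 0.56 to 1.2, 0.90 to 1.59, 0.58 to 1.34 and 0.90 to 1.76 in parental oxamate, 0.56 to 1.31, 0.53 to 0.99, 0.61 to 1.01 and 0.73 to 1.36 in resistant oxamate, 0.42 to 1.17, 1.08 to 1.53, -0.01 to 0.38 and 1.28 to 1.91 in resistant against parental vehicle, 0.54 to 1.17, 0.48 to 1.17, -0.35 to 0.41 and 0.89 to 1.74 under oxamate, and -0.45 to 0.30, -0.91 to -0.21, -0.60 to 0.16 and -0.80 to 0.06 for the difference. MALAT1 and KCNQ1OT1 missed the rule in parental oxamate without the third parental oxamate library, and MALAT1 between the vehicle groups without the third resistant vehicle library. In resistant oxamate, where these fits called 282 to 570 of all genes, 1 of the 4 RNAs met it without the first or second resistant vehicle library. There 3 met it without the first resistant oxamate library and 2 without the third resistant oxamate library. Under oxamate between the lines these fits called 4883 to 5255 of all genes. Of the 4 RNAs, 1 met it there without the first or second parental oxamate or the third resistant oxamate library. Without the first resistant oxamate library 2 met it. Genes called were 1306 to 1511, 282 to 570, 3242 to 3507, 4883 to 5255 and 1184 to 1312 in the 5 comparisons, and list genes called 3 to 6, 1 to 5, 23 to 24, 31 to 35 and 11 to 13.

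By Spearman's correlation 2 of the 3 genes named for MALAT1, 0 for NEAT1, 2 for KCNQ1OT1 and 1 for MIAT remained. Windows of 100 and 500 kb gave 2 called of 14 and 8 called of 63 tested neighbours in parental oxamate. There 5.69% of all genes were called higher and 4.19% lower. The difference of responses has no fit on fewer groups. Depth limits KCNQ1OT1 and MIAT most.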
